A study of Mus musculus with 4 samples.

Results

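Notch genes were followed in cells of the Atoh1 lineage of the embryonic mouse cerebellum. The set is a list of 10 genes of the Notch pathway among the 32285 genes listed for each library: the receptors Notch1, Notch2 and Notch3, the ligands Dll1, Dll3 and Jag1, and the target or target-family transcription factors Hes1, Hes5, Hes6 and Hey1. All 10 were found by symbol in all 4 libraries. They were listed by name, with earlier results of these data known.

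Notch receptors are activated by ligands of the Delta and Jagged families on neighbouring cells. A protease, gamma-secretase, then frees the intracellular part of the receptor, which joins the DNA-binding protein RBPJ and turns on Hes and Hey genes, whose repressor proteins hold back proneural factors such as Atoh1 and Neurod1. Dll3 differs from the other ligands in acting within the cell that makes it, and Hes6 differs from the other Hes genes in favouring neuronal differentiation. In the cerebellum the Atoh1 lineage arises in the rhombic lip and gives the excitatory neurons of the cerebellar nuclei and, later, the granule cell precursors.

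Cells positive for tdTomato were sorted from the cerebellum at E14.5, a stage of mid-gestation, and their RNA was sequenced cell by cell. There are 2 libraries of controls and 2 of the conditional knockout (CKO), each from pooled animals. Controls carried Atoh1-Cre/+ and R26LSL-tdT/+. The CKO carried Atoh1-Cre/+, En1lox/lox, En2lox/lox and R26LSL-tdT/+, so that Cre driven by Atoh1 removes the transcription factors Engrailed 1 and Engrailed 2 in the same cells that it marks. The Cre and the reporter are shared by both groups, and the controls lack the floxed alleles. No embryo numbers are used here, and nothing in the labels says which libraries were prepared together, so the p-values measure only the spread between these libraries, which may be technical. The deletion can occur only in cells that made the Cre.

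The promoters of Hes5, Dll1 and Dll3 are shown because Hes5 is the classical target and Dll1 and Dll3 are the 2 Delta ligands of the list, described with their levels below. Each is 300 bases of the RefSeq promoter table (GRCm38.p6), from 250 bases before to 50 bases after the annotated start, on the gene's own strand, 5′ to 3′. The Hes5 window is chr4:154960673-154960972 (plus strand), and the capitals mark the RBPJ core motif TGGGAA or its reverse complement. The Dll1 window is chr17:15376883-15377182 (minus strand) and the Dll3 window is chr7:28301736-28302035 (minus strand), and the capitals there mark the E-box CAGCTG, a core that proneural bHLH factors bind.
Hes5: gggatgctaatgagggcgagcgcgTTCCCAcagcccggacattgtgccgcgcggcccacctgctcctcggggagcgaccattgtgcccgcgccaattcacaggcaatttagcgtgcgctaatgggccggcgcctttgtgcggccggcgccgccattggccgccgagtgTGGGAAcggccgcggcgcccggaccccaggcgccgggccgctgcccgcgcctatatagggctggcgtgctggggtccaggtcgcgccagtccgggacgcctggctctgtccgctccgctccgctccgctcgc
Dll1: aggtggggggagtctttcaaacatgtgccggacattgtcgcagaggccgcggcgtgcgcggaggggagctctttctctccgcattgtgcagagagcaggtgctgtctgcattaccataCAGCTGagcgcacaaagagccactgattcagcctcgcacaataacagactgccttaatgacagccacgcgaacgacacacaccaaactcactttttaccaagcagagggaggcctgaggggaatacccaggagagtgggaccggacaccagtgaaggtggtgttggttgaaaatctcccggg
Dll3: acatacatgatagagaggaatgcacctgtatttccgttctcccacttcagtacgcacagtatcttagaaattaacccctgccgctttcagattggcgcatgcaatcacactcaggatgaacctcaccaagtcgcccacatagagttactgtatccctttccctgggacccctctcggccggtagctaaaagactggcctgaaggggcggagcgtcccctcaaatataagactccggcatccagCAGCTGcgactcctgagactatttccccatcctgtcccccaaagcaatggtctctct

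RefSeq promoters were matched for 8 of the 10 genes, in 10 windows. TGGGAA, read on both strands, was found in 1 of the 8, Hes5, at 226 and 82 bases before the start (-226 and -82), and 25.6% of 32851 promoters of the same length hold it. CAGCTG, its own reverse complement, was found in 4 of the 8, namely Hes6, Jag1, Dll3 and Dll1, and in 16.3% of all promoters. Counts of the 8 are by gene, in any of its windows, and the percentages are by promoter. A further Dll1 window, chr17:15375774-15376073, holds no CAGCTG. The homeodomain cores TAATTA and TAATTG, of the kind that Engrailed proteins bind, were in none of the 10 windows. They are in 5.29% and 8% of all promoters. These are matches of letters and do not show binding.

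Cells were kept with at least 500 detected genes, 1000 or more UMIs (unique molecular identifiers, each counting 1 captured RNA molecule) and no more than 10% of UMIs from mitochondrial genes, which left 2911 and 3931 control cells and 2007 and 3697 CKO cells. The libraries differed in depth, with a median of 2734 and 2122 UMIs per cell in the controls against 5352 and 5544 for the CKO. They shared 1 to 6 barcodes per pair. Control replicate 2 stood apart in its makeup. In it 59.1% of kept cells had more Meis2 than Pax6 UMIs, against 10.1% to 28.6% in the other libraries. In its Atoh1-positive cells 5 microglial markers summed to 249 CPM (counts divided by the total of the sum and put on the usual scale). The Atoh1-positive cells of the other libraries had at most 0.63 CPM. In the Neurod1-positive cells the sum was 91.4 CPM in control replicate 2 and 16.3 CPM in CKO replicate 2. Cells in none of the 3 cell sets below had 220 and 170 CPM in the controls and 1.13 and 70.4 CPM in the CKO. Haemoglobin and other erythroid transcripts reached 1455 to 3516 CPM in the 3 cell sets of control replicate 2 and 53.4 to 1871 CPM in those of control replicate 1. The same sets of the CKO libraries had 2.1 to 20.6 CPM. In cells of none of the sets these transcripts were at 2101 and 7797 CPM in the controls and 48167.5 and 13.2 CPM in the CKO.

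Notch genes were summed in 3 sets of cells. Cells with an Atoh1 UMI hold the precursors (755, 397, 922 and 1616 cells in control replicates 1 and 2 and CKO replicates 1 and 2, the order used throughout). Cells with a Neurod1 UMI, a marker of differentiating neurons, numbered 1520, 1414, 1049 and 2016. Cells with more Meis2 than Pax6 UMIs, on the side of the cerebellar nuclei neurons, numbered 603, 2322, 573 and 372. The sets overlap: 465, 156, 583 and 1085 cells were both Atoh1-positive and Neurod1-positive, so the 3 comparisons are not independent. The 4 nuclei markers Meis2, Slc17a6, Lhx9 and Pou3f1 summed to 2012 to 2747 CPM in the Meis2 > Pax6 cells and 135 to 1185 CPM in the Atoh1-positive cells, where the 4 granule-side markers Atoh1, Barhl1, Pax6 and Zic1 summed to 1751 to 2385 CPM. Meis2, Atoh1 and Pax6 are also gate genes, so part of this contrast is set by how the cells were chosen. Levels of single genes below are CPM scaled by TMM factors, which adjust for library composition. Since the 3′ ends of transcripts are counted, levels are compared between samples for 1 gene, not between genes.

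The deleted genes were checked first. En2 fell in the Meis2 > Pax6 cells. It was at 246 and 193 CPM in the controls and 48.7 and 43.8 CPM in the CKO libraries, a log2 change of -2.24 with adjusted p = 0.0177 (edgeR quasi-likelihood test, Benjamini-Hochberg adjustment over all genes, used for every adjusted p below unless another tool is named). The log2 change of En2 was -2.74 (adjusted p = 0.068) in the Atoh1-positive cells and -2.69 (adjusted p = 0.0547) in the Neurod1-positive cells, neither past the threshold of 0.05. En1 was at 537 and 475 CPM against 360 and 742 CPM in the Meis2 > Pax6 cells, with overlapping groups. Reads of 3′ ends can lie outside the deleted part of a gene, so a persisting En1 count does not check the deletion.

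Dll1, the ligand that neurogenic cells use to signal to their neighbours, fell in the Meis2 > Pax6 cells of the CKO. It was at 42.8 and 30.2 CPM in the controls (88 and 177 UMIs) and at 6.58 and 8.42 CPM in the CKO libraries (28 and 15 UMIs), means of 36.5 ± 8.91 and 7.50 ± 1.30 CPM (SD, n = 2 each). Both CKO libraries lay below both controls, as for 22.6% of all genes tested in this set. The log2 fold change was -2.30 with a standard error (SE) of 0.32 and adjusted p = 0.0332. It was the 1 Notch gene of the 9 tested that edgeR called in this set, where 25 of 11804 genes, 0.212%, were called and 0.0762% of the 11804 were called lower. DESeq2 also called Hey1, described below.

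In the Atoh1-positive cells Dll1 was at 18.3 and 27.1 CPM in the controls and 11.4 and 7.50 CPM in the CKO. Its log2 fold change there was -1.23 (SE 0.33, unadjusted p = 0.00458 by edgeR, adjusted p = 0.97). In the Neurod1-positive cells it was at 14.6 and 19.2 against 7.83 and 6.0 CPM, a log2 change of -1.28 (SE 0.30, adjusted p = 0.518). The CKO libraries thus lay below the controls in all 3 overlapping sets, as they did for 18% to 22.9% of all genes tested in each. With the low-count filter the edgeR difference in Dll1 passed the adjusted threshold in the Meis2 > Pax6 cells alone. Whether the CKO effect on Dll1 differs between sides was tested in cells without overlap, between Meis2 > Pax6 cells with neither Atoh1 nor Neurod1 and cells with either and no Meis2 excess. The difference in log2 fold change was -0.68 (SE 0.46, adjusted p = 0.665), so a difference was not shown. None of the 10 Notch genes was called in this test of the difference. Of 12461 genes, 112 or 0.899% were called, 0.69% with a positive difference and 0.209% with a negative one. An unadjusted p under 0.05 by edgeR was found for 3 of the 10 and for 1297 of the 12461. With DESeq2, 21 genes were called.

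**Figure D1:**
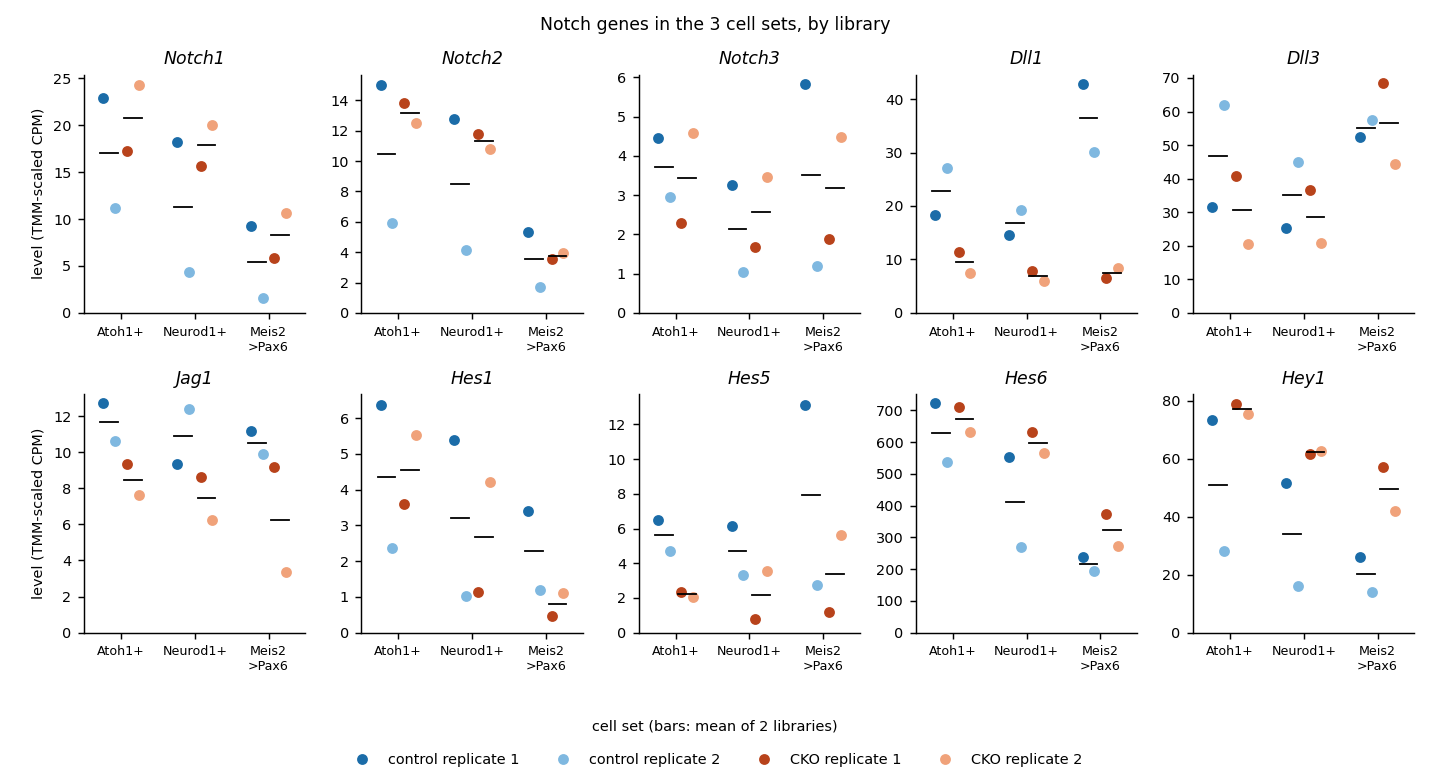
Level of each Notch gene (TMM-scaled CPM, linear axis from 0) in the Atoh1-positive, Neurod1-positive and Meis2 > Pax6 cells; each point is 1 library and each black bar the mean of the 2 libraries of a group. Dll1 in the Meis2 > Pax6 cells is at 42.8 and 30.2 CPM in the controls and at 6.58 and 8.42 CPM in the CKO, and control replicate 2 has the lowest Hey1 level in each set.

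A lower sum in a set of cells can come from fewer cells that make a transcript or from less of it per cell, and sums cannot tell these apart. At few UMIs per cell the share of cells with a UMI falls in both cases, so it cannot tell them apart either. The share of Meis2 > Pax6 cells with a Dll1 UMI was counted after each cell was thinned at random to 1500 UMIs. It was 5.19% and 4.80% in the 2 controls, against 1.19% and 0.96% in the 2 CKO libraries, over 520, 1835, 504 and 311 cells. Unthinned shares were 9.62%, 6.33%, 3.84% and 2.96%. An exact two-sided permutation test over the 4 libraries gave p = 0.33, the smallest that 2 against 2 can give. As a background, 0 of 18 haemoglobin-rich cells had a Dll1 UMI, which allows a share of up to 16.7% and so sets no useful limit. Thinned shares were 3.97% and 5.25% against 1.55% and 0.90% in the Atoh1-positive cells, and 2.46% and 3.46% against 0.81% and 0.64% in the Neurod1-positive cells, with the CKO lower in both. Unthinned, at the greater depth of the CKO cells, these shares overlapped between groups, at 11.9% and 7.56% against 11.6% and 7.74% in the Atoh1-positive and 6.25% and 5.37% against 6.96% and 5.46% in the Neurod1-positive cells.

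Most Dll1 molecules of the Meis2 > Pax6 cells lay in cells that also held a UMI of Robo3, Sst or Olig2, genes picked out after earlier results of these data were seen. Such cells held 65, 132, 21 and 8 Dll1 UMIs, and the others 23, 45, 7 and 7. They also held more UMIs of all genes in each library, for example 3078625 against 1340148 in CKO replicate 1. Their median depth was higher in each library, at 2785.5, 2326, 4289 and 2469 against 2438, 2002, 2515.5 and 2049 UMIs. In such cells Dll1 was at 63.0 and 36.5 CPM in the controls and 6.82 and 7.50 CPM in the CKO (CPM of the summed cells, unscaled). In the other cells it was at 24.6 and 18.5 against 5.22 and 9.82 CPM. The shares of the set with such a UMI overlapped between groups, at 46.4% and 56.6% in the 2 controls against 56.4% and 47.6% in the 2 CKO libraries. Fitted apart, the log2 fold change was -2.69 (SE 0.36, adjusted p = 0.00568) in cells with such a UMI and -1.58 (SE 0.47, adjusted p = 0.271) in cells without. The difference between these values was not tested.

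**Figure D2:**
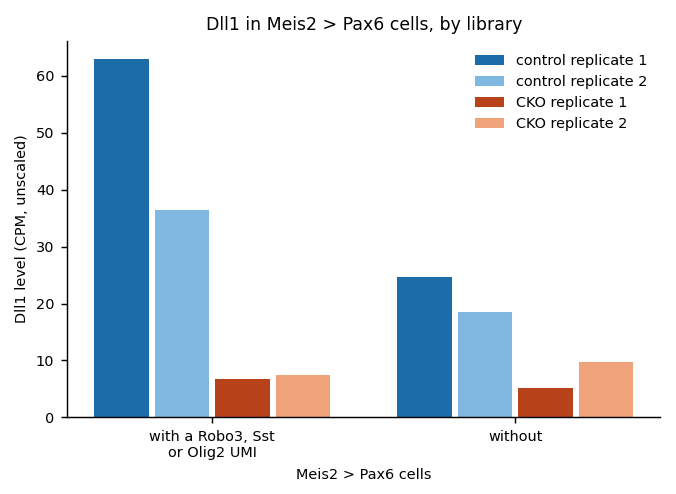
Dll1 level (unscaled CPM, bars from 0) in Meis2 > Pax6 cells with and without a UMI of Robo3, Sst or Olig2, 1 bar per library. In cells with such a UMI the controls stand at 63.0 and 36.5 CPM and the CKO libraries at 6.82 and 7.50 CPM.

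The call on Dll1 in the Meis2 > Pax6 cells held when any 1 library was left out (log2 fold changes of -2.54 to -2.03). It was lost when likely doublets were removed (-2.23, adjusted p = 0.0934), when cells were thinned before the sets were drawn (-1.58, adjusted p = 0.391) and when cells belonging to more than 1 set were dropped (-1.5, adjusted p = 0.33). Markers of GABAergic neurons did not overlap between groups in these cells, a difference that was not tested. The 6 markers summed to 21.9 and 21.0 CPM in the controls and 12 and 12.4 CPM in the CKO, with Ptf1a at 0 in every library. In the cells of the set with neither Atoh1 nor Neurod1 they overlapped, at 9.02 and 23.7 against 15.8 and 17.6 CPM. The 4 granule-side markers did not overlap either, at 1078 and 759 CPM in the controls against 1352 and 1495 CPM in the CKO libraries. In the cells with neither Atoh1 nor Neurod1 they overlapped, at 839 and 638 against 812 and 1097 CPM. Of the 4 markers, Atoh1 and Pax6 are gate genes. Barhl1, which is not, was at 222 and 138 CPM in the controls against 353 and 361 CPM in the CKO. Zic1, also not a gate gene, was at 607 and 472 against 670 and 808 CPM. Cells with an Atoh1 UMI made up 87 of 603 and 195 of 2322 control cells of the set and 183 of 573 and 76 of 372 CKO cells. The part of these markers and cells in the Dll1, Hey1 and Hes6 values of the set was not tested. The 6 progenitor and glia markers overlapped between groups, at 277 and 75.8 against 147 and 290 CPM. Without cells that hold at least 2 UMIs of these markers, Dll1 had a log2 change of -2.11 with adjusted p = 0.021.

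Of the other ligands, neither was called in any set. Jag1 is the Jagged ligand of the list. It was at 12.7 and 10.6 CPM in control and 9.32 and 7.64 CPM in CKO Atoh1-positive cells, and at 11.2 and 9.88 against 9.17 and 3.37 CPM in the Meis2 > Pax6 cells. The CKO libraries were thus lower without overlap in both, and also in the Neurod1-positive cells, with log2 fold changes of -0.49, -0.54 and -0.59 and adjusted p from 0.556 to 0.97. The sets share cells, and 18% to 22.9% of all genes tested were lower without overlap in each. Dll3 overlapped between groups in every set. In the Meis2 > Pax6 cells it was at 52.5 and 57.4 CPM in the controls and 68.6 and 44.3 CPM in the CKO, a log2 change of 0.06 (SE 0.24). The 2 Delta ligands therefore had different values in the same cells, with Dll1 called and Dll3 not, and the difference between them was not tested.

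The receptors overlapped between groups in all 3 sets. Notch1 was at 22.9 and 11.2 CPM in control and 17.3 and 24.3 CPM in CKO Atoh1-positive cells, a log2 change of 0.19 (SE 0.34). Notch2 was at 15.0 and 5.90 against 13.8 and 12.5 CPM there, a log2 change of 0.18 (SE 0.37). Notch3 was scarce, at 2.28 to 4.59 CPM. In the Meis2 > Pax6 cells each receptor had 7 to 25 UMIs per library, and SEs of the log2 change of 0.65 to 1.0 leave differences of that size undetectable.

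Among the targets, Hey1 had its 2 CKO libraries above its 2 controls in every set, without passing the edgeR threshold in any. The sets share cells, and 17.2% to 24.9% of all genes tested were higher without overlap in each. Hey1 was at 73.5 and 28.3 CPM against 79.0 and 75.5 CPM in the Atoh1-positive cells and at 51.7 and 16.1 against 61.7 and 62.8 CPM in the Neurod1-positive cells. Control replicate 2 was the low library in both, and the remaining 3 lay close together. In the Meis2 > Pax6 cells Hey1 was at 26.2 and 14.1 CPM in the controls and 57.3 and 42.1 CPM in the CKO, a log2 change of 1.40 (SE 0.31, adjusted p = 0.103). The call on Hey1 in these cells depended on the setting. DESeq2 gave 1.36 (adjusted p = 0.0340), and edgeR with no low-count filter gave 1.41 (adjusted p = 4.29e-05). It was 1.84 (adjusted p = 0.000269) without control replicate 1 and 1.62 (adjusted p = 0.0110) without CKO replicate 2. Without control replicate 2 it was 0.94 (adjusted p = 0.384), and without CKO replicate 1 it was 1.15 (adjusted p = 0.181).

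Hes6 was the target-family gene with the most UMIs. It was at 724 and 536 CPM against 712 and 632 CPM in the Atoh1-positive cells, overlapping between groups. In the Meis2 > Pax6 cells it was at 238 and 196 CPM against 374 and 273 CPM, with a log2 change of 0.58 (SE 0.24, adjusted p = 0.30). Both CKO libraries were higher than both controls, as for 22% of all genes tested there. Hes5 was at 6.50 and 4.72 CPM in control and 2.35 and 2.06 CPM in CKO Atoh1-positive cells, a log2 change of -1.41 (SE 0.42, unadjusted p = 0.00829, adjusted p = 0.97 by edgeR). Its groups overlapped in the other 2 sets. Few cells decided such values: in the Meis2 > Pax6 cells of CKO replicate 2 all 10 Hes5 UMIs came from 1 cell. Hes1 was at 2.36 to 6.37 CPM in the Atoh1-positive cells and had too few UMIs (2 to 7 per library) to be tested in the Meis2 > Pax6 cells.

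Counted over the list, none of the 10 genes was called in the Atoh1-positive cells, where 3 of 13543 genes, 0.0222%, were called. An unadjusted p under 0.05 by edgeR was found for 2 of the 10 and for 564 of the 13543. With DESeq2 instead of edgeR, 22 genes were called. None of the 10 was called in the Neurod1-positive cells, where 4 of 13926, 0.0287%, were called (92 with DESeq2). There 1 of the 10 and 1213 of the 13926 had an unadjusted p under 0.05 by edgeR. In the Atoh1-positive cells 3 of the 10 genes had both CKO libraries below both controls (Dll1, Jag1 and Hes5) against 18% of all genes, and 1 had both above (Hey1) against 17.2%. In the Neurod1-positive cells 2 lay below (Dll1 and Jag1; 22.9% of all genes) and 2 above (Hes6 and Hey1; 24.9%). The same genes lay below and above in the Meis2 > Pax6 cells, 2 of 9 each way, with 22.6% and 22% of all genes. The shares of the list were near those of all genes. Without the filter on low counts Dll1 was called in the Atoh1-positive (adjusted p = 0.0204) and Neurod1-positive cells (adjusted p = 0.0148). Without control replicate 1, which leaves control replicate 2 as the 1 control, Hey1 was called in the Atoh1-positive cells (1.5), and Dll1 (-1.46), Hey1 (1.97), Hes6 (1.17), Notch1 (2.06) and Notch2 (1.47) in the Neurod1-positive cells, beside 2295 genes in all. The median log2 change of the tested list was -0.15, -0.05 and 0.06 in the 3 sets, against -0.02, 0.01 and -0.01 for all genes.

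**Figure D3:**
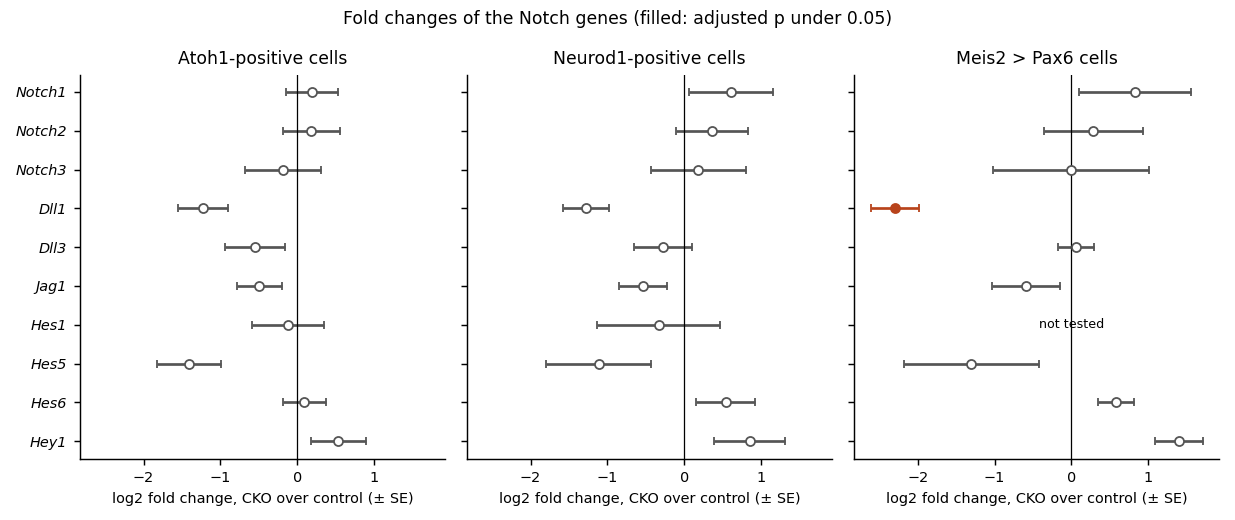
Log2 fold change of CKO over control for each Notch gene in the 3 cell sets, with bars of ± 1 SE from the edgeR fit over 2 libraries a group; filled points have an adjusted p under 0.05. Dll1 in the Meis2 > Pax6 cells, at -2.30, is the 1 filled point.

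The wider Notch pathway was read from a list of 45 further genes (ligands, proteases, glycosyltransferases, co-activators, ubiquitin ligases and other Hes and Hey genes), of which 40, 40 and 37 could be tested in the 3 sets. None was called in the Atoh1-positive or Neurod1-positive cells. There 4 and 5 had an unadjusted p under 0.05 by edgeR, as did 564 of 13543 and 1213 of 13926 of all genes. In the Meis2 > Pax6 cells 1 of 37 was called and fell, Dlk1, which encodes a Delta-like protein without the receptor-activating domain. It was at 53.4 and 27.3 CPM in the controls (110 and 160 UMIs) and 4.70 and 3.93 CPM in the CKO (20 and 7 UMIs), a log2 change of -3.13 with adjusted p = 0.0332. Like Dll1, it lost the call when doublets were removed, when cells were thinned first, when cells in several sets were dropped and without Robo3, Sst or Olig2 cells. In cells with a Robo3, Sst or Olig2 UMI, Dlk1 was at 86.2 and 33.4 CPM against 1.95 and 0.94 CPM, and in the other cells at 22.5 and 16.1 against 10.4 and 8.41 CPM.

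How the Notch genes vary along the lineage was read from 4 states that share no cells: Atoh1 only, Atoh1 and Neurod1, Neurod1 only (all with no Meis2 excess over Pax6), and Meis2 > Pax6 with neither Atoh1 nor Neurod1. Each library gave 1 sum per state, 16 in all, and the library was a block in the fit. The states held 118 to 482, 84 to 1058, 372 to 888 and 223 to 1494 cells per library. Their depth differed, with medians per library of 2551 to 12396, 4049.5 to 18694, 2404 to 4889.5 and 2014 to 2561 UMIs per cell. A deeper cell shows a UMI of a gate gene more readily, so calls of named genes lost on thinning before gating are given.

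Most Notch genes were lower once cells carried Neurod1 without Atoh1. Of the 10, 8 were lower in Neurod1 only than in Atoh1 only cells and none was higher, where 5354 of 11982 genes, 44.7%, were called and 21.6% were lower. Hes6 fell from 797, 686, 877 and 699 CPM to 381, 282, 385 and 404 CPM, with no overlap, a log2 change of -1.07 (SE 0.11, adjusted p = 4.20e-08). Hey1 fell from 83.8, 36.1, 116 and 92.2 CPM to 29.6, 16.9, 30.1 and 39.5 CPM, lower in each library, a log2 change of -1.49 (SE 0.12, adjusted p = 5.26e-10). The receptors fell too: Notch1 was at 24.6, 17.0, 19.2 and 25.7 CPM in Atoh1 only cells and 11, 4.60, 6.35 and 7.87 CPM in Neurod1 only cells, a log2 change of -1.49 (SE 0.23). The changes of Notch2 and Notch3 were -1.09 and -1.74. Dll1 fell by 2.02 on the log2 scale (SE 0.30), from 19.5, 40.3, 24.2 and 10.9 CPM to 6.78, 10.7, 2.01 and 3.70 CPM, and Jag1 by 0.99.

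Dll3 and Hes5 were the 2 genes not called in that comparison. Dll3 was at 46.6, 46.7, 42.5 and 26.1 CPM in Atoh1 only and 27.9, 43.5, 50.1 and 26.7 CPM in Neurod1 only cells, a log2 change of -0.10 (SE 0.14, adjusted p = 0.588). When cells were thinned first, Hes6, Hey1 and Dll1 kept the call (-0.81, -1.16 and -1.30), Notch1 did not (-1.11, adjusted p = 0.0599), and Notch2, Notch3, Jag1 and Hes1 had too few UMIs to be tested. Jag1 lost the call without control replicate 1 or CKO replicate 2 (-0.78 and -0.76) and without progenitor and glia cells. In the control libraries alone, Notch2, Notch3, Jag1 and Hes1 lost the call. Hes1, with 0 to 43 UMIs per library in Atoh1 only cells, 24 of them in 1 cell of CKO replicate 1, had a log2 change of -2.01 that lost the call without that library. Its count of 0 in control replicate 2 allows up to 6.62 CPM.

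**Figure D4:**
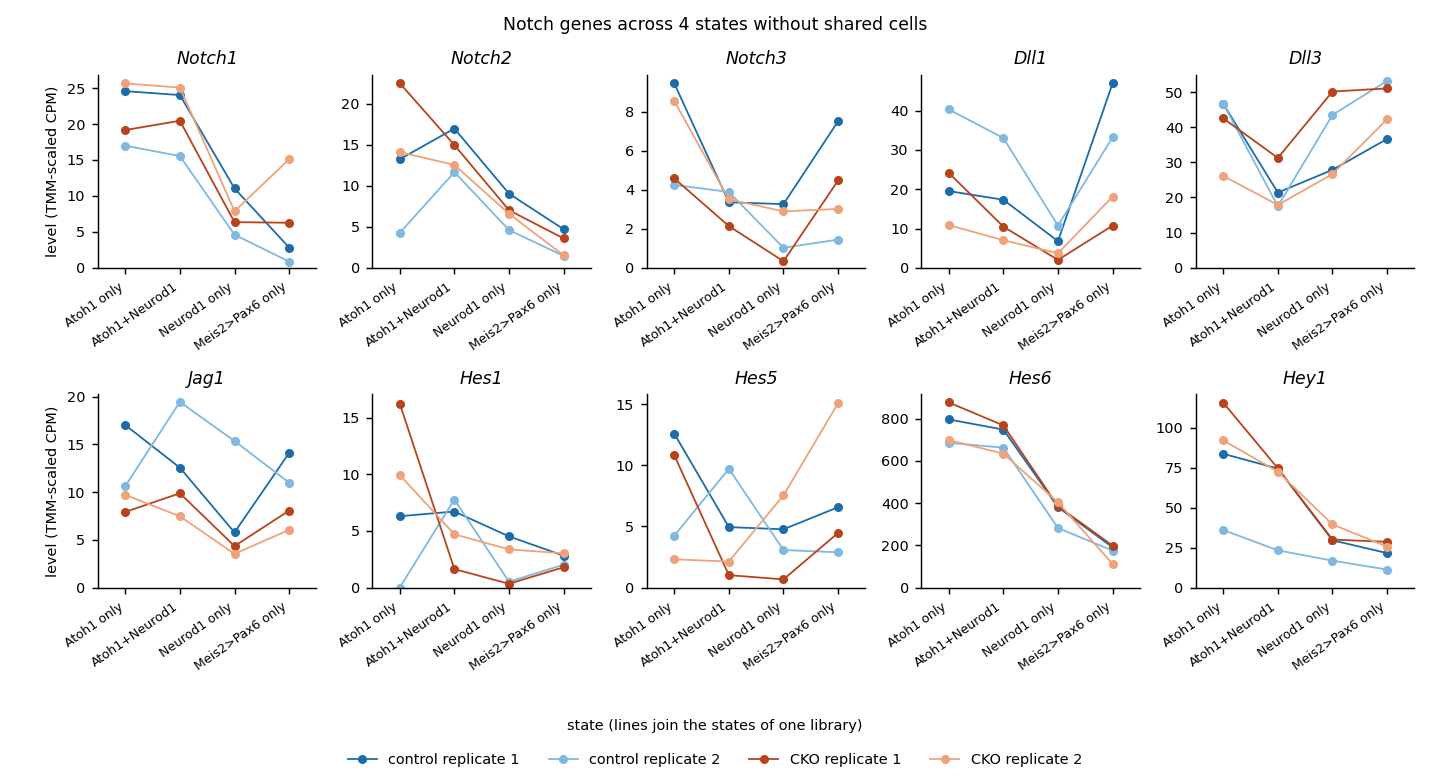
Level of each Notch gene (TMM-scaled CPM, linear axis from 0) in the 4 states, with a line joining the states of each library. Hes6 falls in each library from 686 to 877 CPM in Atoh1 only cells to 112 to 199 CPM in Meis2 > Pax6 only cells, whereas Dll1 is lowest in Neurod1 only cells, at 2.01 to 10.7 CPM.

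Dll1 set the nuclei side apart from the Neurod1 only cells. It was at 47.0, 33.2, 10.7 and 18.1 CPM in Meis2 > Pax6 only cells, above the value of Neurod1 only cells in each library, with a log2 change of 2.13 (SE 0.30, adjusted p = 4.18e-06). Between these states 3 of the 10 genes were called, Dll1 higher and Hes6 (-1.08) and Notch2 (-1.28) lower, where 4989 of 11982 genes, 41.6%, were called, 20% higher and 21.7% lower. Dll1 kept the call in each of the 13 alternatives run (1.78 to 2.44). Notch2 lost it in cells of at least 4000 UMIs (-2.36, adjusted p = 0.137). It also lost it in the control libraries alone (-1.29, adjusted p = 0.0861) and in the CKO libraries alone (-1.38, adjusted p = 0.0696). Hey1, with a log2 change of -0.41 and adjusted p = 0.0589, and Notch3, with 1.04 and adjusted p = 0.0856, were not called. Notch1 was not called either (adjusted p = 0.170), but was in the control libraries alone (-2.29, adjusted p = 0.00319) and without progenitor and glia cells (-1.27, adjusted p = 0.0243). With 1 library left out its change was -1.43 to -0.23. The 6 progenitor and glia markers summed to 252, 75.4, 142 and 551 CPM in the Meis2 > Pax6 only cells.

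Against Atoh1 only cells, the Meis2 > Pax6 only cells had 5 of the 10 genes lower and none higher, where 7046 genes, 58.8%, were called and 28.6% were lower. Hes6 had a log2 change of -2.15 (SE 0.12) and Hey1 of -1.90 (SE 0.16), with Hey1 at 21.6, 11.3, 28.6 and 25.7 CPM. Notch1 (-2.18), Notch2 (-2.37) and Hes1 (-1.85) were lower, on 3 to 10, 1 to 5 and 2 to 7 UMIs per library in the Meis2 > Pax6 only cells. Hes1 lost its call without CKO replicate 1, and Notch1 in cells of at least 4000 UMIs (-1.19, adjusted p = 0.0649). Dll1 and Dll3 had log2 fold changes of 0.10 (SE 0.28) and 0.21 (SE 0.16) and were not called. In order of level, Dll1 was thus lowest in Neurod1 only cells. A difference between Meis2 > Pax6 only and Atoh1 only cells was not shown in this fit, which pooled controls and CKO. Dll1 was higher in Meis2 > Pax6 only cells in control replicate 1 and CKO replicate 2, and lower in control replicate 2 and CKO replicate 1. With 1 library left out its log2 change was -0.44 to 0.49.

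The step from Atoh1 only to Atoh1 and Neurod1 cells showed fewer differences. Dll3 was lower in each library, at 21.4, 17.5, 31.2 and 17.9 CPM in cells with both genes, a log2 change of -0.70 (SE 0.14, adjusted p = 0.00337), and the lowest of the 4 states in each library. Notch3 (-1.26, adjusted p = 0.0166) and Hey1 (-0.40, adjusted p = 0.0283) were also lower. These were 3 of the 10 genes, where 599 of 11982, 5%, were called, 3.22% higher and 1.78% lower. The calls were fragile. Dll3 lost its call without control replicate 1 (-0.55, adjusted p = 0.0546), and Hey1 and Notch3 lost theirs without control replicate 1, CKO replicate 1 or CKO replicate 2 (-0.29 to -0.47 and -1.13 to -1.32). Without progenitor and glia cells the values were -0.02 for Hey1 (adjusted p = 0.997) and -0.47 for Dll3 (adjusted p = 0.266), and with DESeq2 Hey1 had an adjusted p of 0.114. When cells were thinned first, 13 genes were called and none of the 10 was among them.

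Cycling cells were compared with the rest within the Atoh1-positive set. A cell was counted as cycling with at least 2 UMIs together of the mitotic genes Birc5, Cdk1, Cenpf, Mki67, Top2a and Ube2c, which gave 359, 125, 552 and 887 cells. All 3 ligands and 2 of the 3 receptors differed. Notch1 was at 28.0, 22.6, 20.9 and 31.4 CPM in cycling and 13.7, 3.12, 7.89 and 10.8 CPM in non-cycling cells, with no overlap, a log2 change of 1.43 (SE 0.15, adjusted p = 3.72e-06). Notch2 was at 20.4, 12.7, 17.4 and 16.6 CPM against 5.17, 1.04, 4.64 and 4.74 CPM, a log2 change of 1.92 (SE 0.18). Notch3 was not called (0.38, SE 0.27).

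Between these classes, which also differed in depth, the 2 Delta ligands went opposite ways. When cells were thinned first, Dll3 lost its call and Dll1 could not be tested, as given below. Dll1 was at 23.7, 40.9, 14 and 9.81 CPM in cycling and 8.49, 17.7, 4.64 and 3.11 CPM in non-cycling cells, higher in each library, with a log2 change of 1.51 (SE 0.17, adjusted p = 4.95e-06). Dll3 was at 19.4, 33.8, 27.8 and 16.4 CPM against 55.0, 84.1, 74.2 and 28.6 CPM, lower in each library, with a log2 change of -1.23 (SE 0.12, adjusted p = 1.08e-06). Jag1 was higher in cycling cells, at 15.9, 15.5, 11.6 and 10.5 CPM against 7.01, 7.27, 3.48 and 2.17 CPM (1.68, SE 0.22). Of the targets, Hes1 (1.35, SE 0.35) and Hes6 (0.45, SE 0.11) were higher and Hes5 and Hey1 were not called (-0.12 and -0.21). Hes1 lost its call without CKO replicate 2 (1.11, adjusted p = 0.0951).

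In all, 6 of the 10 genes were higher in cycling cells, where 18.1% of 12008 genes were, and 1 was lower, where 17.9% were, with 4316 genes, 35.9%, called. Cycling cells were deeper, with medians per library of 4139 to 19337.5 UMIs against 2574.5 to 12797. When cells were thinned first, Dll3 (-0.88, adjusted p = 0.108) and Hes6 (0.21, adjusted p = 0.223) lost the call, and the other called genes had too few UMIs to be tested, so depth was not settled for them. In deep cells (4000 UMIs or more, no more than 5% from mitochondrial genes) all 7 kept it, and without progenitor and glia cells Hes6 lost it (0.32, adjusted p = 0.104).

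**Figure D5:**
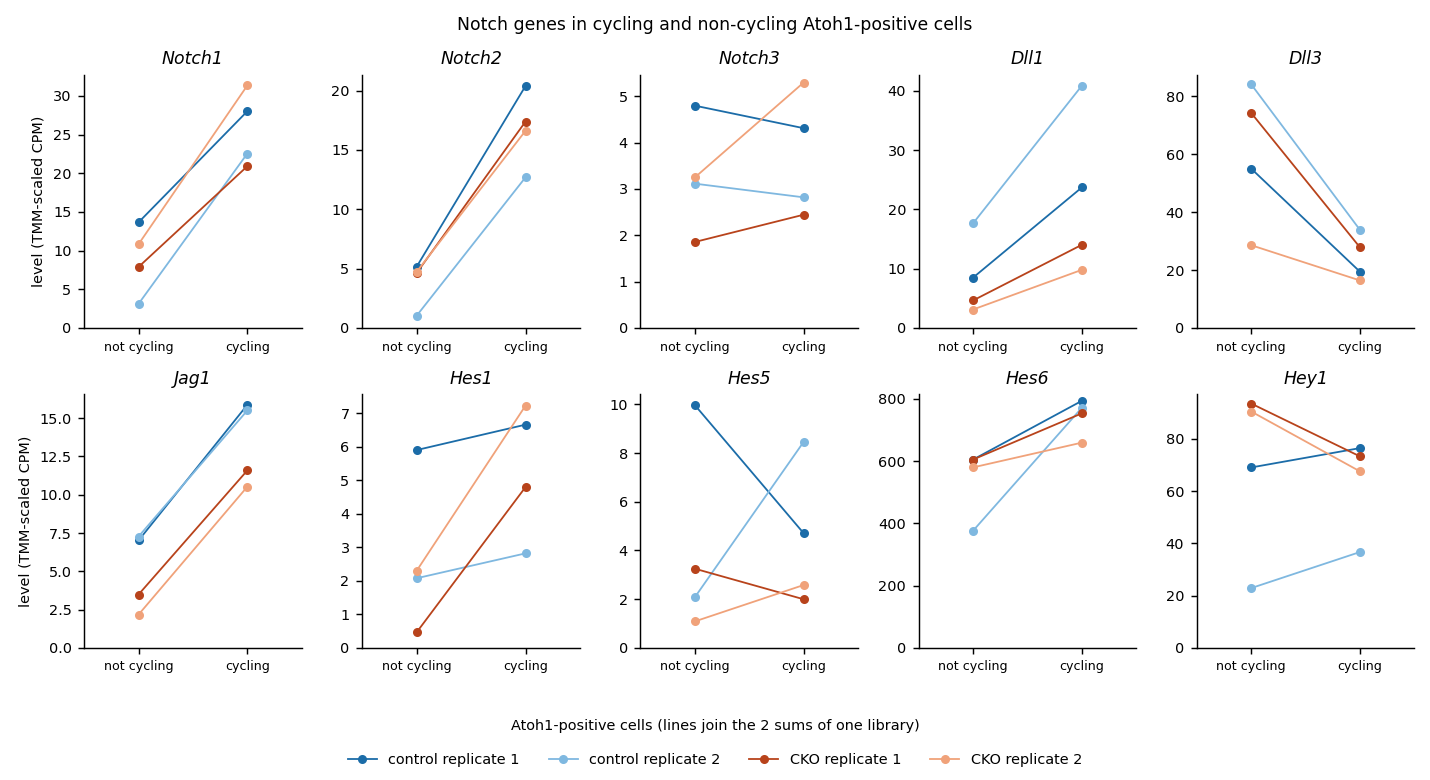
Level of each Notch gene (TMM-scaled CPM, linear axis from 0) in non-cycling and cycling Atoh1-positive cells, with a line joining the 2 sums of each library. Dll1 rises in each library, to 9.81 to 40.9 CPM, and Dll3 falls in each library, to 16.4 to 33.8 CPM.

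In the wider list, Dner and Jag2 were higher in Neurod1 only and Meis2 > Pax6 only cells than in Atoh1 only cells. Neither was called in cells with Atoh1 and Neurod1. Numbl was highest in Neurod1 only cells. Of 37 genes tested, 9 were higher and 4 lower in Neurod1 only than in Atoh1 only cells, where 23% of all genes were higher, and 15 were higher and 8 lower in Meis2 > Pax6 only cells, where 30.2% were higher. Dner, a neuronal Notch ligand-like protein known from Purkinje cells, rose by a log2 change of 2.32 and 2.98 (SE 0.19 and 0.20), from 52.9, 68.0, 30.4 and 28.0 CPM in Atoh1 only to 207, 279, 206 and 139 CPM in Neurod1 only and 284, 319, 322 and 359 CPM in Meis2 > Pax6 only cells. Jag2, the second Jagged ligand, rose by 2.24 and 4.00, to 38.5, 28.3, 24.2 and 52.8 CPM in the Meis2 > Pax6 only cells from 2 to 8 UMIs per library in the Atoh1 only cells. Numbl, which encodes a Notch inhibitor of the Numb family, rose by 0.75 in cells with Atoh1 and Neurod1, by 1.46 in Neurod1 only and by 0.70 in Meis2 > Pax6 only cells, each against Atoh1 only cells. When cells were thinned first, Jag2 lost its call in Neurod1 only cells (1.14, adjusted p = 0.147). Numbl lost its call in cells with Atoh1 and Neurod1 (0.85, adjusted p = 0.560) and in Meis2 > Pax6 only cells (0.44, adjusted p = 0.153).

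Other genes of the list changed less. Aph1b, a gamma-secretase subunit, and Rfng, a Fringe glycosyltransferase, rose in Neurod1 only cells (0.66 and 0.43) and in Meis2 > Pax6 only cells (0.83 and 0.92). Mfng, another Fringe gene, fell (-0.33 and -0.79), as did Snw1, a transcriptional co-regulator (-0.36 and -0.60), and Pofut1, which adds fucose to Notch (-0.55 and -0.50). Adam17, a protease that can shed Notch, fell in Neurod1 only cells (-0.57). Numb (-0.76) and Psenen (-0.75), a gamma-secretase subunit, fell in Meis2 > Pax6 only cells. Several of these calls were fragile. When cells were thinned first, Aph1b (0.62), Rfng (0.42), Snw1 (-0.21), Pofut1 (-0.46) and Adam17 (-0.60) lost the call in Neurod1 only cells (adjusted p = 0.258 to 0.448). In Meis2 > Pax6 only cells thinning removed the calls on Rfng (0.47, adjusted p = 0.306) and Numb (-0.11, adjusted p = 0.788). In Neurod1 only cells Rfng lost the call in 10 of 13 alternatives, among them DESeq2 and each library left out, and Mfng lost it in 8, among them leaving out any library but CKO replicate 2. Pofut1 lost it in 8 of 13 in Meis2 > Pax6 only cells, among them DESeq2 and each library left out, and in 4 in Neurod1 only cells, among them leaving out control replicate 1 or CKO replicate 2. In cells of at least 4000 UMIs the change of Mfng in Meis2 > Pax6 only cells turned to 0.04 and was not called.

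From Neurod1 only to Meis2 > Pax6 only cells 12 of the 37 rose and 6 fell, where 20% of all genes were higher and 21.7% lower, with Jag2 (1.76), Mib2 (0.84), Dner (0.66), Rfng (0.48) and Ncstn (0.41) among the higher, and Numbl (-0.77), Psenen (-0.60), Numb (-0.50), Mfng (-0.46) and Rbpj (-0.28), the DNA-binding partner of Notch, among the lower. Of these, Rfng lost the call in 8 of 13 alternatives, Rbpj and Ncstn in 7 each, and Mfng in 6 with a change of sign in deep cells. Leaving out CKO replicate 1 was among them for all 4 and for Mib2, and leaving out control replicate 2 was enough for Numb. Thinning before gating was also among them for all 4 and removed the call on Numb (-0.37, adjusted p = 0.228). In cycling Atoh1-positive cells 2 of 36 were higher and 15 lower, where 18.1% of all genes were higher and 17.9% lower, with Dner (-1.20), Jag2 (-0.92), Mfng (-0.66), Dtx3 (-0.66) and Mib2 (-0.58) lower. Jag2 and Mib2 lost this call with DESeq2 and on leaving out control replicate 1, CKO replicate 1 or CKO replicate 2. Mfng lost it when cells were thinned first (-0.40, adjusted p = 0.477).

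The genes whose levels over the 16 sums were most like those of a Notch gene were taken by Pearson r of log2(CPM + 1) among 7178 genes at 20 CPM or more. Libraries and depth are shared by the sums, so r is a description. Notch1 was most like Sox2 (r = 0.96), a progenitor transcription factor, then Prmt3 and Mpdz (both 0.94). Genes like Hes6 included Gpx8 (0.99) and Hspe1 (0.98), and genes like Hey1 included Zcchc3 (0.96) and Gas5 (0.95). Dll1 had lower values, with Syn2 and Tial1 (both 0.87) and Rnd3 (0.84). Dll3 was most like Ccnl2, Zfp68 and Nap1l5 (all 0.84), and Jag1 like Fkbp5 (0.74), Mphosph8 and Ier5 (both 0.73). The other 4 genes had means under 10 CPM and were left out.

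The ligand Dll1 and the target Hes5 were also read in the same cell. Among thinned cells with Atoh1 or Neurod1, 0 of 46, 1 of 53, 0 of 16 and 0 of 19 cells with a Dll1 UMI had a Hes5 UMI, against 1.03%, 0.30%, 0.31% and 0.39% of cells without one. At these counts no relation between Dll1 and Hes5 within cells was detectable.

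The annotated positions (GENCODE M21, GRCm38) of 5 of the genes described are chr17:15367354-15376872 for Dll1, chr7:28293553-28302238 for Dll3, chr1:91411483-91414038 for Hes6, chr3:8663359-8667256 for Hey1 and chr2:26457903-26516663 for Notch1. Notch1, Notch3 and Hes5 overlap listed genes of the opposite strand, and whether the counting used strand is not given in the sources used here.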

How the data were processed

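Per the labels, the cells were sorted for tdTomato and libraries were made with a 10x Genomics 3′ kit. The deposited values are raw UMI counts for each gene in each barcode, not normalized, per the file headers and the whole-number values. The submitters' processing notes name Cell Ranger 5.0.0 and mm10; the annotation and strand setting are not given in the sources used here. Cells were filtered and gated as the report states. Doublets were kept in the main analysis and removed in an alternative, by a simulated-doublet score within each library.

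Counts were summed per library and cell set, so that libraries and not cells are the replicates. The sums held 1620097 to 24135255 UMIs in the Atoh1-positive and Neurod1-positive cells and 1779646 to 6043824 in the Meis2 > Pax6 cells, and kept cells held 10617805 to 31877143 per library. Each comparison was fitted over all genes with edgeR 4.0.16 in R 4.3.3 (two-sided quasi-likelihood F test after filterByExpr and TMM), and p-values were adjusted by Benjamini-Hochberg; a gene with an adjusted p under 0.05 is called. SE was taken by dividing the absolute log2 change by the root of the F statistic. Fits between states, cycling classes and for the interaction had the library as a block. Alternatives used DESeq2 1.42.0, other size factors, no low-count filter, libraries left out, other gates and other cell filters. Python 3.11.15 and numpy 2.4.6 were used for the rest.

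The 10 genes and the lists were chosen with earlier results of these data known. Of the wider list, the called genes with a mean of at least 10 CPM are named, at most 5 each way per fit. Dlk1, the 1 wider gene called in the CKO comparisons, is named with them. On simulated data the fit of the Atoh1-positive cells (13543 genes) recovered 26% of genes changed by 1 and 85% of those changed by 2 on the log2 scale, with 12 false calls. The fit of Neurod1 only against Atoh1 only cells (11982 genes) recovered 86% and 98%, with 12 false calls. Some of the genes most like a Notch gene in level are not reported here.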

Additional observations from a re-analysis of the deposited data

Results flagged for a closer look

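The CKO effect on Dner differed between the 2 sides of the lineage. In cells with Atoh1 or Neurod1 and no Meis2 excess, Dner was at 104 and 218 CPM in the controls and 68.6 and 55.4 CPM in the CKO libraries (CPM of the summed cells). In the Meis2 > Pax6 only cells it was at 303 and 315 CPM in the controls and 334 and 381 CPM in the CKO. The difference between the log2 fold changes, the nuclei side minus the other, was 1.348 (SE 0.29, adjusted p = 0.00944, edgeR interaction test). The call was lost in 7 of 11 alternatives, with values of 0.55 to 1.57 among those. These were DESeq2, leaving out control replicate 2, CKO replicate 1 or CKO replicate 2, cells of at least 4000 UMIs, cells thinned before gating, and cells without progenitor and glia markers.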

How the results depend on the processing

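Of the 27 results in which a Notch gene was called, 285 of 322 alternatives kept the call and 37 lost it, and none of 1113 alternatives for the 10 genes reversed a called direction. Alternatives in which a gene could not be tested, thinning among them, are left out of these counts. In 107 of the 1113 a value that was not called changed sign. For the named genes of the wider list, 359 of 466 alternatives kept the call, 105 lost it and 2 changed its sign, both for Mfng in deep cells (4000 UMIs or more, no more than 5% from mitochondrial genes; 0.042 against Atoh1 only and 0.219 against Neurod1 only).

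The number of genes called in the Atoh1-positive, Neurod1-positive and Meis2 > Pax6 cells moved from 3, 4 and 25 to 22, 92 and 174 with DESeq2, to 182, 495 and 559 with no low-count filter, and to 1, 1 and 7 when cells were thinned before gating. Removing doublets gave 1 in the Neurod1-positive and 0 in the Meis2 > Pax6 cells. The deep cells gave 0 in the Atoh1-positive and 42 in the Meis2 > Pax6 cells, a gate of 2 UMIs 2 in the Neurod1-positive and 72 in the Meis2 > Pax6 cells, and cells in 1 set 6 in the Atoh1-positive and 7 in the Meis2 > Pax6 cells. Leaving out other cell types gave 0 and 0 in the first 2 sets, and leaving out progenitor and glia cells 0 and 2. Without Robo3, Sst or Olig2 cells 2 genes were called in the Meis2 > Pax6 cells, and in those cells only 215. These last 2 settings were chosen after seeing the data.

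Leaving out 1 library gave 6 to 121, 2 to 2295 and 44 to 751 genes in the 3 sets, the highest without control replicate 1, control replicate 1 and CKO replicate 2. It gave 158 to 876 for Atoh1 and Neurod1 against Atoh1 only cells (158 without CKO replicate 1), 3825 to 5476, 5911 to 6981 and 3679 to 5113 for the other state comparisons, 2613 to 4569 for cycling cells (2613 without CKO replicate 1) and 29 to 660 for the interaction (660 without control replicate 1, 29 without control replicate 2 or CKO replicate 2). The 1 library left in a group is assumed to vary like the other group.

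Among the state comparisons, thinning gave 13, 1384, 3193 and 2142 calls, leaving out progenitor and glia cells 377, 2794, 4506 and 3230, and the control libraries alone 97, 2289, 4215 and 2185. Deep cells gave 4333 and 2582 in the comparisons of Meis2 > Pax6 only with Atoh1 only and Neurod1 only cells. For cycling cells the count was 2871 with DESeq2, 644 after thinning and 1664 without progenitor and glia cells. For the interaction it was 21, 20 and 62 in the same order, and 6 in deep cells. The causes were not tested.

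With the replicate number as a block, 4, 2 and 58 genes were called in the 3 sets, and Hey1 passed the threshold in the Meis2 > Pax6 cells (1.35, adjusted p = 0.0401). Nothing in the labels says that the numbers pair the libraries, and the differences between replicates of the 2 groups correlated at r = -0.27, -0.22 and -0.25 over genes. With the pairing crossed, an alternative chosen after seeing the data, 191, 253 and 763 genes were called.

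Receptors, Hes1 and Hes5 rest on few UMIs, and 2 libraries a group limit every comparison with the CKO.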

Other observations

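Cells in none of the 3 sets (752, 782, 323 and 927 cells) also held Notch transcripts. Hes5 was at 20.9, 1.79, 29.5 and 9.99 CPM there and Hes1 at 12.6, 7.17, 6.80 and 25.9 CPM (CPM of the summed cells). Few cells carried them: 22 of 38 Hes5 UMIs in control replicate 1 and 14 of 26 in CKO replicate 1 came from 1 cell each, and 24 of 57 Hes1 UMIs in CKO replicate 2 from 1 cell. The 6 progenitor and glia markers summed to 542, 129, 861 and 332 CPM in these cells, against 298, 157, 226 and 252 CPM in the Atoh1-positive cells.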
